A study of Bos taurus with 4 samples.

Results

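The immediate early genes described here are FOS, FOSB, JUN, JUNB, ATF3, EGR1, IER2, IER3, DUSP1 and ZFP36, that is, subunits of the AP-1 transcription factor, an EGR factor and genes that act as rapid feedback on growth factor and stress signals. The 10 genes were chosen by name, and each had 1 row among the 29792 rows of the deposited count tables. All 10 had at least 1 read in some library, but only 7 of them (FOS, JUN, JUNB, ATF3, IER2, IER3 and DUSP1) reached 50 reads in any library. All 10 matched a protein-coding gene of the NCBI RefSeq table of ARS-UCD2.0, and in that assembly no other gene overlapped any of them.

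Immediate early genes are transcribed within minutes of a stimulus, before any new protein is needed, when kinases such as ERK, JNK and p38 act on transcription factors already bound at their promoters. FOS and JUN family proteins pair through leucine zippers to form AP-1, whereas DUSP1 removes phosphate from the same kinases and ZFP36 speeds the decay of AU-rich messenger RNAs. Most of these messenger RNAs are short-lived, so their level follows the signals that a cell received shortly before its RNA was taken. In the gut, growth factors and cell stress are known inducers.

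RNA came from intestine, muscle, and intestinal organoids at passage 5 (P5) and passage 10 (P10), all of Hanwoo cows, with 1 library for each. The labels give the first pair only as tissue, without a treatment or the segment of gut, and the organoids had been grown in Matrigel with IntestiCult medium from jejunal crypts of healthy animals over 24 months old. The labels do not say how many animals were used or whether the 4 samples share one. QuantSeq, which reads only the 3′ end of polyadenylated RNA, gave 12917720 to 17776273 reads per library, and RN18S1, an 18S ribosomal RNA row, took from 0.264% of them in P10 organoids to 23.6% in muscle.

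Each condition has 1 library, so the differences were not checked against replicates and p-values are not given. Levels are in CPM (reads scaled to a library total of 1000000), with a 95% Wilson interval where it is printed, and the values of a gene in the 4 libraries are set side by side. Differences are on the log2 scale after quantile normalisation, which gives every library the same distribution of values, and carry a 95% interval in brackets that covers counting error only. This choice matters most against muscle: the median of all rows lay 0.15 higher in P5 organoids than in muscle with quantile normalisation and 1.30 higher with library totals alone. Fresh tissue is a mixture of cell types, so fewer cells that express a gene and less RNA of it per cell cannot be told apart.

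After quantile normalisation, the members did not fall into a tissue set and an organoid set. Under quantile, library-total, TMM and upper-quartile scaling alike, DUSP1 was lower in both organoid libraries than in both tissues, and JUNB and IER2 were higher. JUN, ATF3, FOS and IER3 each placed at least 1 organoid library between or level with the tissues after quantile normalisation. Of the 9 members with more than 3 reads in any library, 2 (DUSP1 and EGR1) lay below both tissues in both organoid libraries, against 19.2% of all 20372 rows compared. Another 2 (IER2 and JUNB) lay above both tissues, against 26.0% of all rows. A gap of at least 2-fold between the tissues and the organoids was found for 0 members in either direction, against 9.22% of rows with the organoids lower and 10.2% with the organoids higher. These quantile-normalised member shares are close to those of all rows or below them. With library totals, 3 of the 9 (DUSP1, EGR1 and FOSB) lay below both tissues, against 14.1% of rows. Another 4 (FOS, IER2, IER3 and JUNB) lay above both, against 34.1%. A 2-fold gap was again found for 0 members, against 8.71% of rows below and 11.2% above. TMM and upper-quartile scaling put the same 3 below both tissues, against 22.2% and 23.0% of rows. FOSB had at most 14 reads in any library. With TMM or upper-quartile scaling, DUSP1 and EGR1 (2 of 9 members) passed 2-fold below both tissues, against 11% and 11.3% of rows. EGR1 there rests on 4 reads in muscle, 3 in P5 and 0 in P10 organoids.

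**Figure D1:**
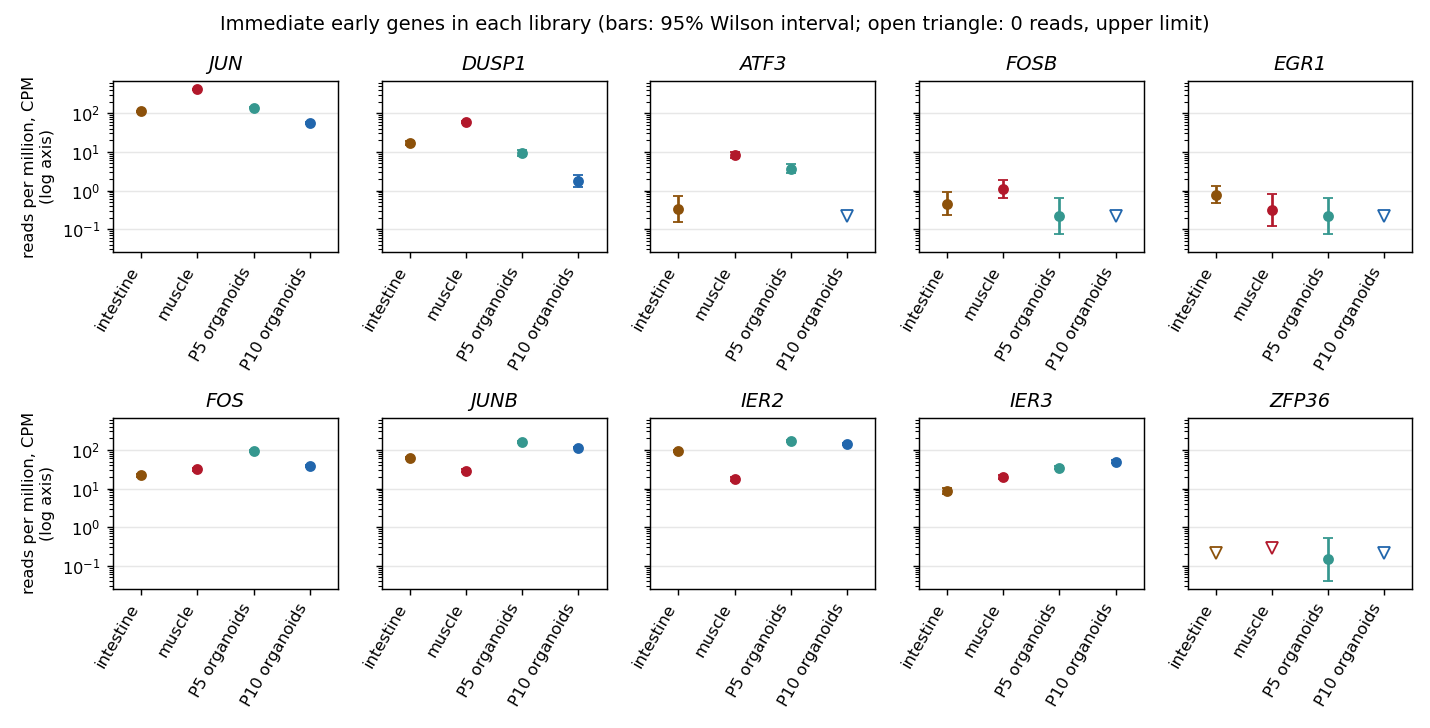
Level of each of the 10 genes in the 4 libraries, in CPM on a log axis. Points are the single library of each condition, bars are 95% Wilson intervals (often smaller than the point), and open triangles mark 0 reads at the upper limit of that interval. DUSP1 is highest in muscle at 60.3 CPM and lowest in P10 organoids at 1.75 CPM, whereas IER3 lies highest in P10 organoids at 50.1 CPM.

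JUN, the AP-1 subunit that also pairs with itself, had 1977 reads in intestine, 5388 in muscle, 1890 in P5 and 984 in P10 organoids, or 111, 417, 139 and 55.5 CPM. Muscle was therefore far above the other 3 libraries, and P10 organoids were the lowest. Intestine and P5 organoids lay within counting error of each other after quantile normalisation (P5 minus intestine 0.09, interval -0.01 to 0.18), and per library total P5 organoids were 1.25-fold higher (1.17 to 1.33). P10 organoids were lower than intestine by a log2 difference of -1.32 (-1.43 to -1.21) and lower than muscle by -3.53 (-3.64 to -3.44). The difference between P5 organoids and muscle was -2.12 (-2.21 to -2.05).

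JUNB, a JUN relative that is a weaker activator and restrains JUN at many promoters, gave another picture. It had 1079 reads in intestine, 374 in muscle, 2167 in P5 and 2035 in P10 organoids, or 60.7, 29.0, 159 and 115 CPM. Both organoid libraries lay above both tissues. P5 organoids exceeded intestine by 1.18 (1.07 to 1.30) and muscle by 1.34 (1.19 to 1.47), and P10 organoids by 0.66 (0.55 to 0.78) and 0.82 (0.67 to 0.95). Intestine and muscle could not be told apart after quantile normalisation (0.15, -0.01 to 0.31), but intestine was 2.10-fold higher per library total.

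FOS, the classic immediate early gene and the partner of JUN in AP-1, had 389 reads in intestine, 405 in muscle, 1275 in P5 and 671 in P10 organoids. These are 21.9, 31.4, 93.8 and 37.8 CPM. P5 organoids had the highest level, and intestine the lowest. FOS was higher than intestine by 1.95 (1.77 to 2.12) in P5 organoids and by 0.55 (0.36 to 0.74) in P10 organoids. Against muscle, P5 organoids were 0.44 higher (0.30 to 0.59), whereas P10 organoids lay at -0.95 (-1.12 to -0.78). The direction in P10 organoids turned with library totals, under which FOS was 1.21-fold higher than muscle (1.07 to 1.37), and turned back to -0.11 without RN18S1 in the totals.

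FOSB, whose product resembles FOS, had 8 reads in intestine, 14 in muscle, 3 in P5 and 0 in P10 organoids. At these counts, the intervals of every neighbouring pair of libraries in order of CPM overlapped. P10 organoids had 0 reads, set to the floor of 3 reads (0.169 CPM in that library). The bounds per library total were then 6.41-fold below muscle and 2.66-fold below intestine, without the counting error of the tissues. After quantile normalisation, the interval of P10 organoids minus intestine included 0 (-2.09, -3.03 to 1.04). P5 organoids differed from muscle by -2.99 (-4.78 to -1.28) after quantile normalisation, and muscle was 4.91-fold above them per library total (1.37 to 26.7).

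ATF3, a stress-induced repressor that binds AP-1 and related sites, had 6 reads in intestine, 109 in muscle, 50 in P5 and 0 in P10 organoids. Muscle and P5 organoids stood apart from the other 2 libraries. After quantile normalisation, P5 organoids differed from intestine by 4.06 (3.04 to 5.08) and from muscle by -2.34 (-2.77 to -1.90). Per library total, P5 organoids, at 3.68 CPM (2.79 to 4.85), were 10.9-fold above intestine (4.67 to 31.1) and 2.30-fold below muscle (1.63 to 3.28), and P10 organoids were at least 21.7-fold below P5 organoids and at least 49.9-fold below muscle. ATF3 could not be separated between P10 organoids and intestine, since both were at or close to the floor.

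EGR1, a zinc finger factor induced through SRF and its ETS partners, was close to the floor everywhere. It had 14 reads in intestine, 4 in muscle, 3 in P5 and 0 in P10 organoids, and the highest level was 0.788 CPM (0.469 to 1.32). P5 organoids differed from intestine by -0.77 (-2.52 to 0.89) after quantile normalisation. Per library total, intestine was 3.57-fold above P5 organoids (0.996 to 19.4), and the bound against P10 organoids was 4.65-fold. The quantile-normalised interval of P10 organoids minus intestine included 0 (-2.86, -3.69 to 0.24). With 0 reads in P10 organoids set to the floor, EGR1 no longer lay below both tissues there after quantile normalisation. The other EGR genes also had few reads. EGR2 had 5 reads in muscle and none elsewhere, EGR3 had 23 reads in intestine, 5 in muscle and none in the organoids, and EGR4 had no read in any library.

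IER2, a nuclear protein of the early response, followed the same order of libraries as JUNB. It had 1646 reads in intestine, 231 in muscle, 2342 in P5 and 2543 in P10 organoids, or 92.6, 17.9, 172 and 143 CPM. Muscle was the lowest library by a wide margin. P5 organoids were higher than intestine by 0.67 (0.58 to 0.77) and P10 organoids by 0.38 (0.28 to 0.48), and the differences from muscle were 2.03 (1.86 to 2.20) and 1.74 (1.56 to 1.91). IER2 and JUNB lie on 1 chromosome in ARS-UCD2.0, with 22 annotated genes between them.

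IER3, which modulates survival and ERK signalling, was the only member with a higher CPM in P10 than in P5 organoids. It had 154 reads in intestine, 260 in muscle, 476 in P5 and 888 in P10 organoids, or 8.66, 20.1, 35.0 and 50.1 CPM. Both organoid libraries were well above intestine, by 2.06 (1.75 to 2.39) in P5 and 2.50 (2.20 to 2.82) in P10 organoids. Against muscle the result depended on the scaling. The differences were -0.43 (-0.63 to -0.23) and 0.01 (-0.18 to 0.19) with quantile normalisation, and 1.74-fold (1.49 to 2.03) and 2.49-fold (2.16 to 2.87) higher with library totals.

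DUSP1, the phosphatase that switches off p38, JNK and ERK, had 303 reads in intestine, 779 in muscle, 124 in P5 and 31 in P10 organoids. The levels were 17.0, 60.3, 9.12 and 1.75 CPM, and no interval overlapped another. DUSP1 was lower than intestine by a log2 difference of -0.91 (-1.22 to -0.60) in P5 organoids and -2.90 (-3.40 to -2.48) in P10 organoids. Against muscle, the differences were -3.57 (-3.84 to -3.31) and -5.56 (-6.04 to -5.17). Among the 22200 rows with a read in any library, DUSP1 ranked at the 93.7 percentile in muscle, 66.9 in intestine, 57.1 in P5 and 41.5 in P10 organoids.

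ZFP36 had 2 reads in P5 organoids and none in the other 3 libraries, so its level could not be measured. The floor of 3 reads stands at 0.169 CPM in intestine and P10 organoids and 0.232 CPM in muscle. The Wilson interval of 0 reads reached 0.216 CPM in intestine, 0.297 in muscle and 0.217 in P10 organoids. Its relatives ZFP36L1 and ZFP36L2, which bind the same AU-rich elements, were well counted. ZFP36L1 had 2968 reads in intestine, 816 in muscle, 1478 in P5 and 1974 in P10 organoids, and ZFP36L2 had 2681, 1307, 2482 and 4608.

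**Figure D2:**
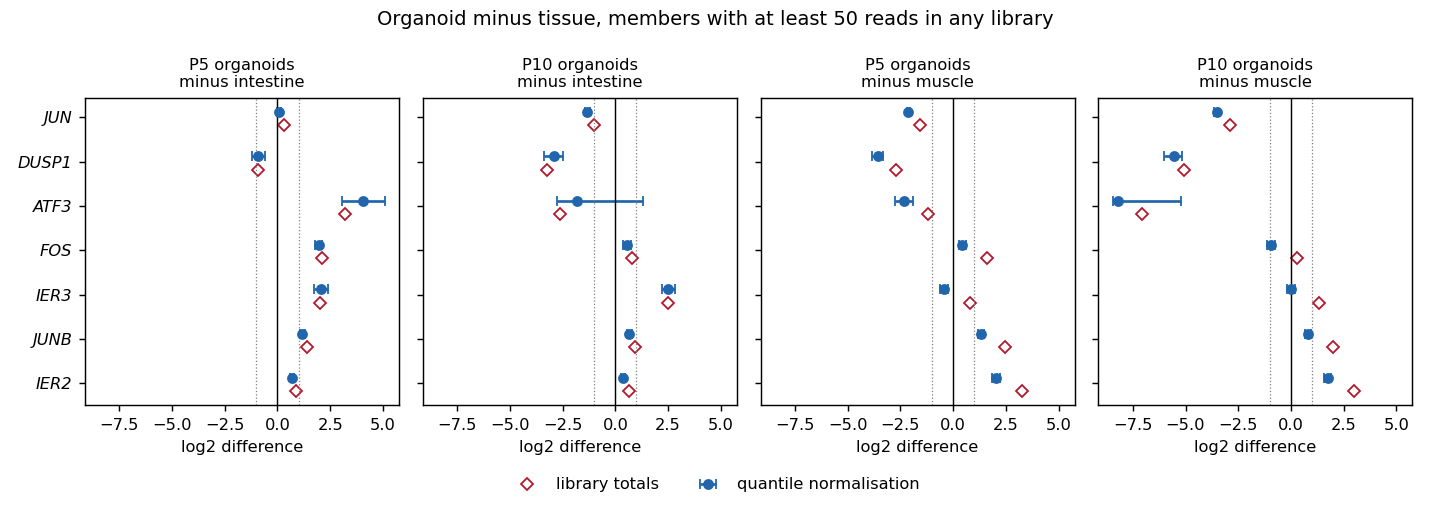
Log2 difference of each organoid library from each tissue for the 7 members that reached 50 reads. Filled circles are quantile-normalised values with 95% counting intervals, open diamonds are values scaled by library totals, dotted lines mark 2-fold, and the ATF3 values in P10 organoids rest on 0 reads. JUN and DUSP1 lie left of 0 in 3 and in 4 of the 4 comparisons, and the diamonds of FOS and IER3 shift to the right of 0 against muscle.

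Counted over the members, the comparison with intestine gave other counts at P5 than at P10, a difference that was not tested. In P5 organoids, 4 of 9 members (ATF3, FOS, IER3 and JUNB) exceeded intestine by 2-fold or more, against 27.6% of all rows compared, and 0 were at least 2-fold lower, against 23.1%. In P10 organoids, only IER3 was at least 2-fold higher, against 29.1% of rows, and 5 (ATF3, DUSP1, EGR1, FOSB and JUN) were at least 2-fold lower, against 27.2%. ATF3, EGR1 and FOSB had 0 reads in P10 organoids and at most 14 in intestine, and among the members with at least 50 reads in 1 library of the pair, 2 of 6 were at least 2-fold lower (DUSP1 and JUN), against 23.6% of rows with so many reads. The median of the members was 0.67 in P5 and -1.32 in P10 organoids (all rows 0.16 and 0.12), and the second value became 0.55 when counts under 3 reads were raised to 3 and 0.47 over the 6 members with 50 reads.

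Against muscle, 2 members (IER2 and JUNB) exceeded it by 2-fold or more in P5 organoids, against 34.5% of rows, and 5 were at least 2-fold lower, against 28.0%. In P10 organoids, IER2 alone was at least 2-fold higher, against 34.9% of rows, and 5 were at least 2-fold lower, against 29.9%. The 5 were ATF3, DUSP1, EGR1, FOSB and JUN in both cases. EGR1 had 4 reads in muscle, 3 in P5 and 0 in P10 organoids. Its P5 interval included 0 (-1.27, -3.23 to 0.62), and its P10 bound was 1.83-fold per library total. Among members with 50 reads, the lower ones were ATF3, DUSP1 and JUN, 3 of 7. The shares of such rows were 24.2% in P5 and 24.6% in P10 organoids. Library totals moved all rows toward the organoids, with 56.0% higher and 18.2% lower in P5 organoids and 55.9% and 20.9% in P10 organoids. Under that scaling 3 members were at least 2-fold higher than muscle at each passage (FOS, IER2 and JUNB in P5, and IER2, IER3 and JUNB in P10 organoids). At least 2-fold lower were 4 of 9 in P5 organoids (ATF3, DUSP1, FOSB and JUN) and 5 of 9 in P10 organoids (the same and EGR1).

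The tissues also differed from each other. In intestine, 6 of 9 members (ATF3, DUSP1, FOS, FOSB, IER3 and JUN) were at least 2-fold lower than in muscle, against 28.5% of rows, and only IER2 was at least 2-fold higher, against 33.0%. With library totals, 5 were lower (without FOS) against 12.7% of rows, and 3 were higher (EGR1, IER2 and JUNB) against 56.3%. The largest of the quantile-normalised differences with at least 50 reads was that of ATF3, at -6.40 (-7.39 to -5.41), and those of DUSP1 and JUN were -2.66 (-2.86 to -2.46) and -2.21 (-2.29 to -2.14). Per library total, muscle exceeded intestine 25-fold in ATF3 (11.1 to 69.6), 3.54-fold in DUSP1 (3.09 to 4.05) and 3.75-fold in JUN (3.56 to 3.95). The intervals of DUSP1 and JUN overlapped under that scaling, so these 2 genes could not be ordered there.

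Between the passages, 4 of the 7 members with more than 3 reads in either organoid library were at least 2-fold lower in P10 than in P5 organoids, against 19.2% of rows, and 0 were at least 2-fold higher, against 16.9%. The 4 were FOS (-1.39, interval -1.53 to -1.26), JUN (-1.41, -1.52 to -1.29), DUSP1 (-1.99, -2.52 to -1.53) and ATF3, given above as a bound. JUNB and IER2 were lower by smaller differences of -0.52 (-0.62 to -0.43) and -0.29 (-0.38 to -0.21), and IER3 was higher by 0.44 (0.28 to 0.59). Library totals, TMM and upper-quartile normalisation gave the same 4 genes. Passage and culture cannot be told apart with 1 library each.

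Ratios of reads of 2 members within a library do not depend on how libraries are scaled to each other. The ratio of JUN to JUNB reads was 14.4 in muscle (13.0 to 16), 1.83 in intestine (1.70 to 1.98), 0.872 in P5 (0.820 to 0.928) and 0.484 in P10 organoids (0.448 to 0.522). It was above 1 in both tissues and below 1 in both organoid libraries. The ratio of FOS to JUN was 0.197 in intestine and 0.0752 in muscle, and it was 0.675 (0.628 to 0.725) in P5 and 0.682 (0.617 to 0.753) in P10 organoids, which overlapped, although both genes were lower at P10.

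DUSP1 stood differently in the tissues and the organoids relative to FOS, one of the genes whose inducing kinases it inactivates. There were 0.779 DUSP1 reads for each FOS read in intestine (0.668 to 0.907) and 1.92 in muscle (1.70 to 2.17), but 0.0973 in P5 (0.0802 to 0.117) and 0.0462 in P10 organoids (0.0311 to 0.0662). The ratio of IER3 to DUSP1 ran the other way, from 0.334 in muscle and 0.508 in intestine to 3.84 in P5 and 28.6 in P10 organoids (20.0 to 42.4). For each of these 4 ratios, the interval of either tissue did not overlap that of either organoid library. The ratios were picked after the levels had been seen, so their separation is a description.

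**Figure D3:**
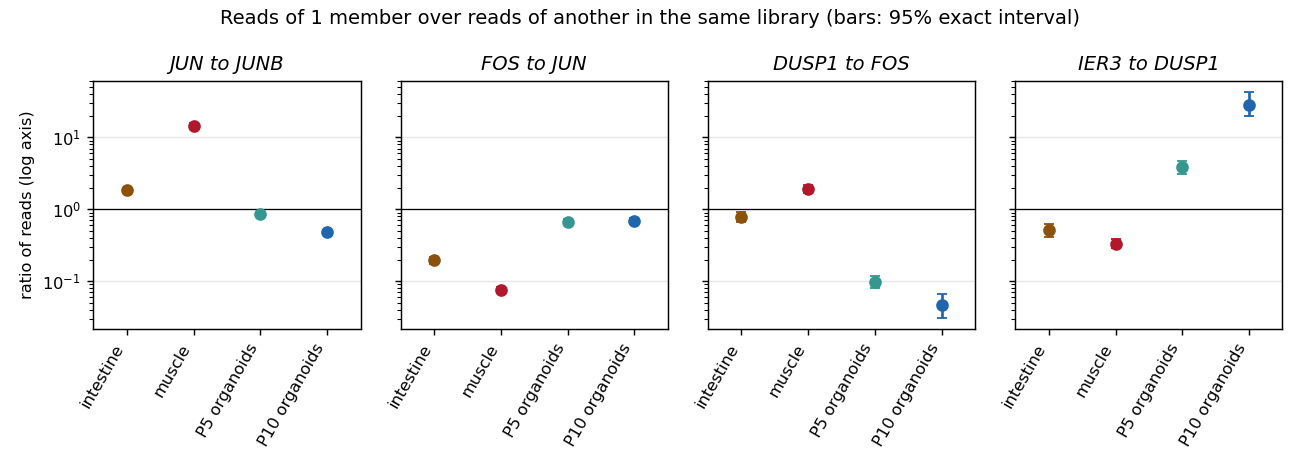
Ratio of the reads of 1 member to those of another in the same library, on a log axis, with 95% exact binomial intervals as bars. JUN to JUNB lies above 1 in the tissues and below 1 in the organoids, and IER3 to DUSP1 lies between 0.334 in muscle and 28.6 in P10 organoids.

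All 10 members together took 0.0314% of the reads in intestine (0.0306 to 0.0322), 0.0586% in muscle (0.0573 to 0.0599), 0.0613% in P5 (0.06 to 0.0626) and 0.0403% in P10 organoids (0.0394 to 0.0413). The share was not ordered by tissue against culture. JUN made up 71.2% of the member reads in muscle, 35.5% in intestine, 22.7% in P5 and 13.8% in P10 organoids. Without JUN, the share was 0.0202% in intestine, 0.0168% in muscle, 0.0474% in P5 and 0.0348% in P10 organoids, higher in both organoid libraries than in either tissue. This order is a description, since it leaves out the member with the most reads in muscle. Most of the remaining reads in P5 organoids were IER2 and JUNB (2342 and 2167 of 6442), given above as higher there.

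The cell types in the libraries differed along with these genes. The 8 epithelial markers summed to 1870 CPM in intestine, 21.4 in muscle, 10200 in P5 and 9520 in P10 organoids. In muscle, 4 of the 8 (VIL1, KRT18, ELF3 and CLDN7) had 0 reads, but KRT8, KRT19, EPCAM and CDH1 had 132, 77, 56 and 12. The 8 skeletal muscle markers summed to 30800 CPM in muscle and at most 2.19 CPM elsewhere. By these defining markers, the muscle library holds skeletal muscle, and the intestine and organoid libraries hold epithelium. All 6 fibroblast markers were above the floor in both tissues (998 CPM in intestine and 1210 in muscle), whereas 2 were in P5 (3.68 CPM in sum) and 1 in P10 organoids (0.282 CPM). COL3A1, LUM and DCN had 0 reads in both organoid libraries.

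Leukocyte markers, 11 in all, summed to 5210 CPM in intestine, 36.1 in muscle, 6.84 in P5 and 10.2 in P10 organoids. Most of the intestine sum was JCHAIN, at 4880 CPM. MS4A1, CD79B, CD3D and CSF1R had 0 reads in both organoid libraries. In each of these libraries 4 markers were above the floor, among them PTPRC with 40 reads in P5 and 43 in P10 organoids. The 5 endothelial markers summed to 45.2 and 36.7 CPM in intestine and muscle and to 1.54 and 2.31 CPM in P5 and P10 organoids, with KDR and CLDN5 at 0 in both organoids. For the 4 smooth muscle markers, the sums were 1430, 44.0, 12.6 and 7.56 CPM in the same order of libraries. The 6 enterocyte markers summed to 11400 CPM in intestine, 47.3 in muscle, 4080 in P5 and 117 in P10 organoids. The organoid library with lower FOS, JUN, ATF3 and DUSP1 thus also had fewer enterocyte reads. Most of the intestine sum was FABP2 (6610 CPM) and APOA4 (3580 CPM). Against intestine, 4 of the 6 were at least 2-fold lower at P5, and 2 went the other way. These 2 were SI (129 CPM in intestine, 457 at P5) and ANPEP (7.03 and 2070 CPM). The part of these cell types in the levels of the members was not tested.

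Of 12 further AP-1 and ATF subunits, 2 were at least 2-fold higher and 3 at least 2-fold lower than in intestine at each passage, against 27.6% of all rows higher and 23.1% lower in P5 and 29.1% and 27.2% in P10 organoids. These counts are close to the shares of all rows or below them. FOSL1, a FOS relative expressed in regenerating and migrating epithelium, had 1 read in intestine, 11 in muscle, 32 in P5 and 86 in P10 organoids, and P5 and P10 organoids were 2.76-fold and 5.70-fold above muscle per library total, although the quantile-normalised interval in P5 organoids included 0 (0.65, -0.46 to 1.66). BATF3, a partner of JUN in dendritic and T cells, had 261 reads in intestine, 10 in muscle and 0 in both organoid libraries, at least 66.6-fold and 86.8-fold below intestine per library total. BATF2, an interferon-induced AP-1 factor, had 97 reads in intestine, 0 in muscle, 23 in P5 and 129 in P10 organoids. MAFF was lower in both organoid libraries (11 and 12.9 CPM) than in intestine (20.5 CPM) and muscle (59.5 CPM). ATF4, of the amino acid response, was highest in muscle at 857 CPM and lay between 281 and 381 CPM elsewhere, and MAFK lay between 6.89 CPM in muscle and 30.2 CPM in P5 organoids.

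Of 14 other early transcription factors above the floor, 4 were at least 2-fold below both tissues in both organoid libraries, against 9.22% of all rows, and none was 2-fold above, against 10.2%. The 4 were NR4A1, NR4A3, KLF2 and EGR3. EGR3 rests on few reads, with 5 in muscle and 0 in P5 organoids. Its bound per library total in that pair was 1.75-fold. NR4A1, an orphan nuclear receptor of the early response, had 442 reads in intestine and 446 in muscle but 22 in P5 and 65 in P10 organoids. Its log2 differences from intestine were -3.70 (-4.36 to -3.14) and -2.67 (-2.99 to -2.35). KLF2, a factor of endothelium and quiescent T cells, had 125, 259, 6 and 12 reads, and differed from intestine by -3.42 (-4.85 to -2.26) and -2.42 (-3.13 to -1.76). NR4A3 had 48 reads in intestine, 25 in muscle and none in the organoids.

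MYC, a driver of crypt proliferation, had 90 reads in intestine, 6 in muscle, 73 in P5 and 117 in P10 organoids, and IRF1 had 1079, 38, 964 and 1184. KLF4, a factor of differentiating epithelium, was 1.99 higher in P5 organoids than in intestine (1.77 to 2.23) and 0.14 in P10 organoids (-0.12 to 0.41). KLF6 lay at 101, 88.6 and 137 CPM in intestine, muscle and P5 organoids and at 28.3 CPM in P10 organoids. Over this list, 3 genes were at least 2-fold higher and 4 lower than intestine in P5 organoids, and 1 higher and 5 lower in P10 organoids, against the same shares of all rows as above, with medians of 0.07 and 0.03.

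The list of 31 other early feedback and effector genes had 13 of 29 at least 2-fold higher than intestine in P5 organoids and 4 lower, and 9 of 30 higher and 8 lower in P10 organoids. The shares over all rows were 27.6% and 23.1% at P5 and 29.1% and 27.2% at P10, close to the counts at P10. Its medians were 0.70 and 0.45, and with the other scalings, filters and added counts they ranged from 0.21 to 0.70 and from -0.06 to 0.46. DUSP5 and DUSP6, phosphatases specific for ERK, were higher in both organoid libraries than in both tissues, opposite to DUSP1. Between passages DUSP6 was lower in P10 organoids (-0.77, -0.82 to -0.72), as DUSP1 was. DUSP5 had 92 reads in intestine, 7 in muscle, 527 in P5 and 1352 in P10 organoids, and differed from intestine by 3.16 (2.77 to 3.55) and 4.07 (3.70 to 4.46). DUSP6, named after its values were seen, had 2782, 598, 8605 and 6984 reads, 1.91 (1.83 to 1.99) and 1.14 (1.06 to 1.22) above intestine.

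ERRFI1, a feedback inhibitor of the EGF receptor, was 3.38 (3.02 to 3.74) and 2.55 (2.18 to 2.91) above intestine in P5 and P10 organoids. PLK3 had 27 reads in intestine, 0 in muscle, 24 in P5 and 77 in P10 organoids. At the low end were the matricellular genes CCN1 and CCN2, which are targets of SRF and YAP and appear in the files as CYR61 and CTGF. CYR61 had 286 reads in intestine, 158 in muscle, 0 in P5 and 15 in P10 organoids, and CTGF had 236, 877, 9 and 0. SOCS3, a feedback inhibitor of cytokine receptors, had 87 reads in intestine, 54 in muscle, 3 in P5 and 94 in P10 organoids.

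Of 21 kinases and transcription factors that act upstream of the immediate early genes, 5 were at least 2-fold higher than intestine in P5 organoids, against 27.6% of all rows, and 1 was lower, against 23.1%. In P10 organoids, 4 were higher, against 29.1%, and 2 lower, against 27.2%. MAPK3, which encodes ERK1, lay at 55.0 CPM in intestine, 9.52 in muscle, 133 in P5 and 120 in P10 organoids. RPS6KA1, which encodes a kinase downstream of ERK, was 1.86 (1.70 to 2.02) and 1.45 (1.29 to 1.61) above intestine, and had 14 reads in muscle. ELK1, an SRF partner at early gene promoters, was 1.34 (1.07 to 1.63) above intestine in P5 and 3.20 (2.95 to 3.46) in P10 organoids, whereas its relative ELK3 was lower by -1.98 (-2.24 to -1.74) and -2.71 (-2.94 to -2.47). RPS6KA3, which encodes another kinase downstream of ERK, differed from intestine by -0.66 and -0.48.

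Of 12 heat shock genes, which respond to protein damage, 0 passed 2-fold from intestine in either direction in P5 organoids, against 27.6% of all rows higher and 23.1% lower. In P10 organoids, 1 was higher and 2 were lower, against 29.1% and 27.2%. Muscle had far more reads of BAG3 (403 CPM, against 15.8 to 19.9 elsewhere) and HSPB1 (6550 CPM, against 754 to 1450), genes that skeletal muscle is known to express strongly. HSPA8, HSP90AB1 and HSPD1 were 0.47, 0.99 and 0.54 above intestine in P5 organoids, and HSPH1 lay at -0.81. Of 11 reference genes, 5 exceeded intestine by 2-fold or more in P5 organoids against 27.6% of all rows, and 0 lay as far below it, with a median of 0.80, above that of the immediate early genes. PPIA, ACTB and PGK1 were the highest of them over both tissues (1.61, 1.17 and 2.02 above intestine in P5 organoids), and TBP and SDHA, at the low end over both tissues, differed by 0.52 and -0.18.

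**Figure D4:**
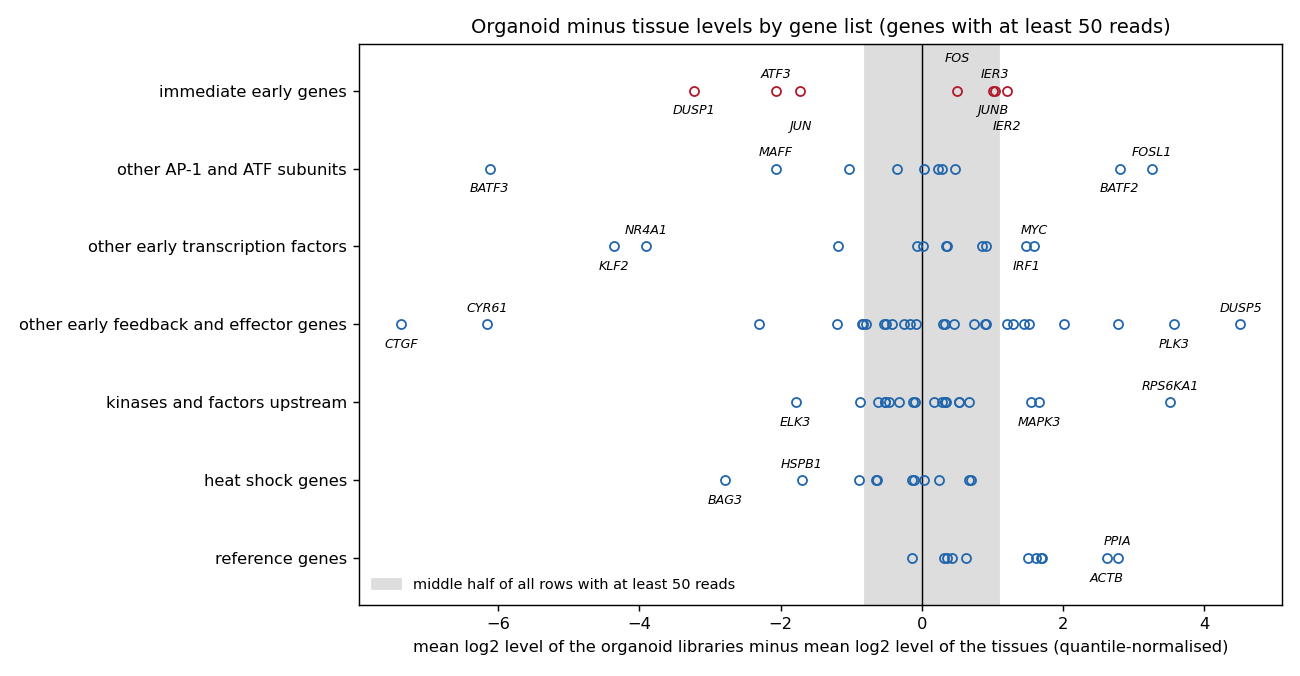
Mean log2 level of the 2 organoid libraries minus that of the 2 tissues after quantile normalisation, 1 circle for each gene that reached 50 reads in 1 of the libraries. The grey band spans the lower to the upper quartile of all 15051 such rows (-0.80 to 1.09). DUSP1, ATF3 and JUN lie left of the band, FOS, IER3 and JUNB inside it and IER2 just right of it, and the feedback list reaches from CTGF at -7.37 to DUSP5 at 4.51.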

How the data were processed

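The authors made QuantSeq 3′ libraries from total RNA. Reads were placed with Bowtie2 on genomic or transcript sequences, and Bedtools gave a count per gene in which both unique and multiple hits were used. They deposited whole-number counts without normalisation, 1 table for each of 4 samples. The build, annotation, versions and strand setting are not given in the sources used here, so no coordinates are printed. A 3′ method counts a gene only where its annotated end covers the reads.

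The counts of the 22200 rows with a read in any library were quantile-normalised with limma 3.58.1 in R 4.3.3, as the paper names this method, and used as log2(value + 1). Counting intervals of differences combine exact Poisson bounds of both counts, put through each library's normalisation. CPM ratios have exact binomial intervals and shares 95% Wilson intervals. PCR copies are not independent molecules, so all of these cover counting error only. A count of 3 reads or fewer was taken as the floor, and rows at the floor in both libraries of a comparison were left out. A fold against 0 reads is a bound computed at 3 reads per library. It leaves out the counting error of the other count.

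The genes and lists were chosen with earlier results of these data known. From each list, the 3 genes with the highest and the 3 with the lowest mean organoid minus tissue difference were named, provided that a gene reached 50 reads, and 2 genes that this rule names are not reported here. The scripts were tested on simulated data. The alternatives were CPM, TMM and upper-quartile scaling (edgeR 4.0.16), totals without RN18S1, pseudocounts of 0.1 and 5, a minimum of 10 reads and rows summed by symbol. Raising counts under 3 reads to 3, and a minimum of 50 reads in the higher library, were chosen after seeing the data. Intervals came from scipy 1.17.1 with numpy 2.4.6 under Python 3.11.15, tables from pandas 2.3.3 and plots from matplotlib 3.10.9.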

Additional observations from a re-analysis of the deposited data

Results flagged for a closer look

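FOS lay on opposite sides of muscle at the 2 passages after quantile normalisation, with log2 differences of 0.44 at P5 and -0.95 at P10, each with a counting interval that did not include 0. The difference between these effects was not tested, since each condition has 1 library. With library totals FOS was above muscle at both passages, by 1.58 and 0.27. Without the RN18S1 row in the totals, the differences from muscle were 1.26 at P5 and -0.11 at P10.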

How the results depend on the processing

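Of 42 differences between libraries for the 7 genes with at least 50 reads, 37 had the same sign under all 10 alternatives. The 5 that did not were FOS and IER3 in P10 organoids and IER3 in P5 organoids against muscle, JUNB between intestine and muscle, and ATF3 between P10 organoids and intestine, whose -1.81 became 1.05 when counts under 3 reads were raised to 3, because 3 reads in P10 organoids rank above 6 in intestine. That setting left 2 members at least 2-fold lower in P10 organoids than in intestine, against 20.2% of rows. It left 2 at least 2-fold higher, against 30.9%, and 1 below both tissues, against 20.4%. The median was 0.55. When 50 reads were required in 1 library of the pair, 2 members were lower than intestine in P10 organoids (median 0.47), against 23.6% of rows. Lower than muscle were 3 at each passage, against 24.2% of rows in P5 and 24.6% in P10 organoids. Below both tissues lay 1, against 21.9%. A pseudocount of 5 left 3 members at least 2-fold lower than intestine in P10 organoids, against 22.9% of rows.

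With library totals, 1 of 9 members was at least 2-fold lower than intestine in P5 organoids, against 25.1% of rows. At least 2-fold higher than muscle were 3 in P10 organoids, against 55.9% of rows, and 3 in intestine, against 56.3%. Above both tissues lay 4, against 34.1% of rows, and below both lay 3, against 14.1%. The median of intestine minus muscle was -1.16. The median of the other AP-1 and ATF subunits in P10 organoids against muscle turned from -1.06 to 0.25. Without RN18S1 in the totals, 1 member was lower than intestine in P5 organoids, 2 were higher than muscle in P10 organoids, and the median of intestine minus muscle was -1.48. The shares of reads on the members became 0.0327% in intestine, 0.0767% in muscle and 0.0644% in P5 organoids, so that muscle had the highest. TMM and upper-quartile scaling each put 2 members (DUSP1 and EGR1) at least 2-fold lower than intestine in P5 organoids, against 27.1% and 26.7% of all rows, and 2 at least 2-fold below both tissues, against 11% and 11.3%. No paired analysis was possible because each condition has 1 library. Low counts limit EGR1, FOSB and ZFP36, with at most 14 reads each, and the reason for these counts was not tested.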
